A study of Mus musculus with 292 samples.

Results

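The genes described here encode the subunits of the glutamate and GABA receptors of the brain. They were chosen by mouse symbol, matched from the gene identifiers: the prefixes Gria, Grin, Grik, Grid, Grm, Gabra, Gabrb, Gabrg, Gabrd, Gabre and Gabbr with their number or letter, leaving out Gabra6, and with a mean of at least 1 CPM (counts per 1M counts of the library, M for mega) in at least 1 brain region. Of 48795 gene identifiers, 41 fitted the names and 39 passed the level, while Grin3b and Grm6 did not. The 39 genes were 4 AMPA, 6 NMDA, 5 kainate and 2 delta subunits, 7 metabotropic glutamate receptors, 13 GABA-A subunits and 2 GABA-B subunits. All 39 passed the filter on low counts in every test below.

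Glutamate is the main excitatory transmitter of the brain and GABA the main inhibitory transmitter. AMPA, NMDA and kainate subunits assemble around a cation channel, GABA-A subunits assemble around a chloride channel, and the metabotropic and GABA-B receptors act through G proteins. Which subunits a neuron makes sets the kinetics, calcium permeability, drug sensitivity and position of its receptors, and the set differs between brain regions and between synaptic and extrasynaptic sites.

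The libraries came from male mice of the strain C57BL/6J, wild type and 26 weeks old, with no other allele and no treatment named in the labels. Tissue was taken at 13 time points, 3 h apart over 36 h, labelled by zeitgeber time (ZT), so that ZT0 to ZT12 were sampled in a first and a second cycle while the first cycle alone has ZT15, ZT18 and ZT21. Messenger RNA of the cerebral cortex (right hemisphere), striatum, hypothalamus and liver was sequenced in 292 libraries, and 79 mouse codes tie the tissues of a mouse together, so that the libraries of 1 tissue are from separate mice. C57BL/6J carries a spontaneous intronic deletion that lowers Gabra2, and all groups share it. Of 215 brain libraries, 211 were used: 76 of cortex, 58 of striatum and 77 of hypothalamus. The other 4 (cortex ZT0 replicate 1 and ZT9 replicate 9, striatum ZT21 replicate 3 and ZT3 replicate 5) were left out by the rule that defined the genes.

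Each ZT group held 6 to 12 libraries in cortex and in hypothalamus but 2 to 11 in striatum, where ZT15 had 2 and ZT18 had 4. Library totals were 28.3M to 40.5M counts in cortex, 28.7M to 43.4M in striatum and 29.2M to 50.0M in hypothalamus. As a check of the ZT labels, the fitted 24 h peak of the clock gene Arntl was at 0.094 h in cortex, 0.20 h in striatum and 23.1 h in hypothalamus. Drd1, the dopamine receptor that marks striatal projection neurons, ranged from 4.83 to 341 CPM over the striatum libraries, and 29 of 58 had 100 CPM or more. The summed level of 4 thalamic neuron markers reached 953 CPM in them (median 69.2) and that of 4 choroid plexus markers 21906 CPM (median 357). In cortex, ZT6 replicate 10 stood apart: its log2 values deviated from the cortex mean with an SD of 0.764 over 12091 genes, against a median of 0.138 over the 76 libraries, and 18 of the 39 receptor genes were below all other cortex libraries. In hypothalamus, ZT18 replicate 4 (SD 0.575) and ZT21 replicate 4 (0.438) were farthest out, against a median of 0.188, and 29 receptor genes were below all other libraries in ZT18 replicate 4. Genes below all other libraries were not counted over all genes. The counts of 18 and 29 therefore describe these libraries and are not a result about the receptor genes. Hypothalamus ZT15 replicate 5 was low in the hypothalamic neuropeptide Hcrt (7.76 CPM, where the median was 88.7) and high in the cortical transporter Slc17a7 (20.4 CPM against a median of 1.13). Counts of called members that changed in fits without these libraries are given below. In bulk tissue, fewer cells of a type and less RNA per cell cannot be told apart.

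The levels of different genes were compared as FPKM, fragments scaled to the length of the gene and the depth of the library, which the authors deposited. The order of genes by FPKM rests on the lengths used and can differ from that by CPM. The obligate GABA-B subunit Gabbr1, which binds GABA, was the highest of the 39 in all 3 regions, with medians of 95.4 FPKM in cortex (lowest 86.5, highest 103.6), 88.0 in striatum (49.4 to 108.1) and 93.5 in hypothalamus (67.6 to 106.7). Its partner Gabbr2, which couples the receptor to the G protein, was lower: 52.1 FPKM in cortex, 19.4 in striatum and 30.2 in hypothalamus, and within a library Gabbr1 exceeded Gabbr2 by a median of 1.82 times in cortex, 4.31 in striatum and 3.13 in hypothalamus. The lowest Gabbr1 to Gabbr2 ratio in hypothalamus, 2.71, was above the highest in cortex, 2.37.

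**Figure D1:**
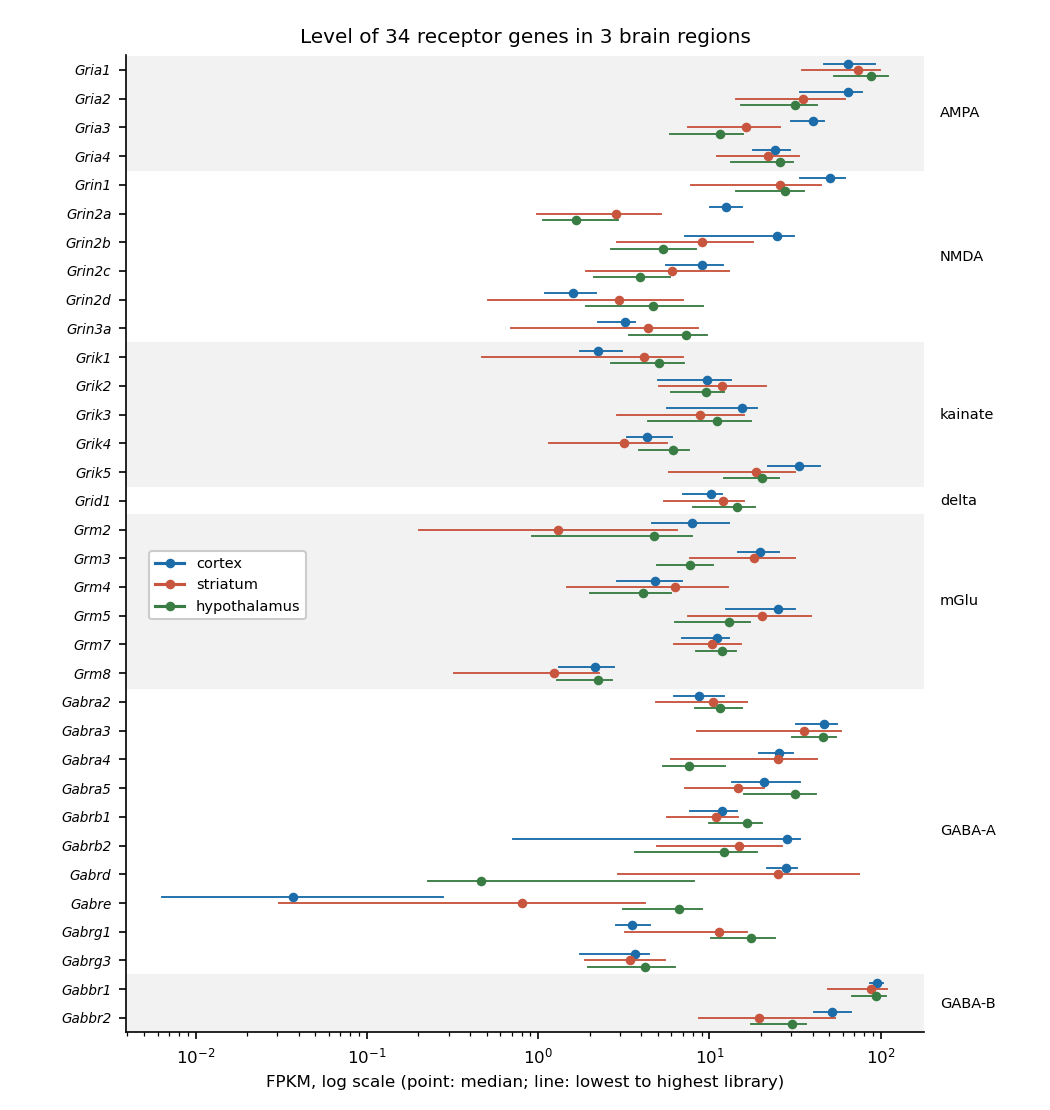
Level of 34 of the 39 genes in each brain region: the horizontal axis is FPKM on a log scale, points are medians over libraries (76 cortex, 58 striatum, 77 hypothalamus) and lines run from the lowest to the highest library. Gabbr1 leads in all 3 regions, while Gabrd has a median of 0.465 FPKM in hypothalamus and Gabre of 0.037 FPKM in cortex.

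Among AMPA subunits, which carry most fast excitation, cortex had Gria1 and Gria2 at close medians (64.7 and 64.8 FPKM), whereas Gria1 led in hypothalamus (87.7 against 31.5) and in striatum (73.2 against 35.2). Gria2 is the subunit whose edited form blocks calcium entry. The Gria1 to Gria2 ratio was 0.730 to 1.51 over cortex libraries (median 0.999), 1.54 to 3.25 in striatum (median 2.03) and 2.20 to 3.96 in hypothalamus (median 2.80). Cortex did not overlap with either of the other regions. Of the summed AMPA level, Gria3 held 21.0% in cortex, 11.2% in striatum and 7.32% in hypothalamus (medians).

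Among NMDA subunits, the obligate Grin1 was highest by FPKM in each region, at 50.8 FPKM in cortex, 25.9 in striatum and 27.6 in hypothalamus. By mean CPM, Grin2b (24842 exonic bases) exceeded Grin1 (9700) in cortex, with 593 against 494, but not in striatum or hypothalamus. Of the glutamate-binding subunits, Grin2b had 24.6 FPKM in cortex, 9.07 in striatum and 5.32 in hypothalamus, and Grin2a had 12.5, 2.85 and 1.66. The Grin2a to Grin2b ratio, which rises with maturation in forebrain, had a median of 0.505 in cortex, 0.344 in striatum and 0.306 in hypothalamus, and the regions overlapped. Among kainate subunits the high-affinity Grik5 led in all 3 regions (33.5, 18.8 and 20.4 FPKM), and the delta subunit Grid1, which binds cerebellin at synapses, had 10.2, 12.1 and 14.6. Among metabotropic receptors Grm5, the Gq-coupled receptor, led with 25.0 FPKM in cortex, 20.3 in striatum and 13.05 in hypothalamus. Grm3 was close to it in cortex (19.7) and striatum (18.3) but not in hypothalamus (7.75). Grm7, a presynaptic receptor of low glutamate affinity, was nearly level over the regions, with 11.1, 10.3 and 11.8 FPKM, and Grm8, of the same group, had 2.16, 1.24 and 2.25. Of the lower kainate subunits, Grik3 had 15.6 FPKM in cortex, 8.81 in striatum and 11.1 in hypothalamus, and Grik1 had 2.24, 4.17 and 5.07. The NMDA subunits Grin2d (1.59, 2.96 and 4.66 FPKM) and Grin3a (3.21, 4.39 and 7.33) had the order of regions opposite to that of Grin2a and Grin2b.

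The GABA-A subunits covered the widest range. Gabra2 had medians of 8.69 FPKM in cortex, 10.5 in striatum and 11.5 in hypothalamus. Gabra3 had 46.7 FPKM in cortex, 35.8 in striatum and 46.0 in hypothalamus, and Gabra5, the alpha5 subunit of mostly extrasynaptic receptors, 20.7, 14.7 and 31.4. Of the beta subunits, which help form the GABA site, Gabrb2 had 28.2, 14.9 and 12.1 FPKM and Gabrb1 11.8, 10.9 and 16.5. Hypothalamus was thus the region where Gabrb1 exceeded Gabrb2 by its median FPKM. The delta subunit Gabrd, which forms extrasynaptic receptors, had 27.9 FPKM in cortex, 25.1 in striatum and 0.465 in hypothalamus. The epsilon subunit Gabre showed the opposite order, with 0.037, 0.808 and 6.61 FPKM, and it was the only member with a mean under 1 CPM in a brain region (0.241 CPM in cortex, where counts ranged from 1 to 53).

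Levels were then compared between regions within mice, by edgeR's quasi-likelihood test with the mouse as a block. A gene was called where its Benjamini-Hochberg adjusted p over all genes was under 0.05 and its fitted fold was at least 2. At any size, 38 of 39 members had an adjusted p under 0.05 between cortex and hypothalamus (background 90.4%), 37 between cortex and striatum (85.6%) and 32 between striatum and hypothalamus (75.6%), near the shares of all genes. Between cortex and hypothalamus (75 mice), 17 of 39 members were called (43.6%), where 20.7% of 18918 genes tested were. Of these, 13 were higher in cortex (background 10.2%) and 4 in hypothalamus (background 10.5%). The median absolute log2 difference was 0.90 over the members and 0.42 over all genes. Between cortex and striatum (55 mice) 8 members were called (20.5%, background 15.7%), 6 of them higher in cortex (background 7.47%) and 2 in striatum (background 8.25%). Between striatum and hypothalamus (57 mice) 5 were called (12.8%, background 8.72%), 3 of them higher in striatum (background 4.19%) and 2 in hypothalamus (background 4.53%). The members share their libraries, and comparisons that share a region share its libraries too.

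The largest differences between cortex and hypothalamus were in Gabrd and Gabre. Gabrd ranged from 62.0 to 92.9 CPM over cortex libraries (median 80.2) and from 0.653 to 23.3 in hypothalamus (median 1.34), and the groups did not overlap. The fitted difference, hypothalamus minus cortex, was -5.88 ± 0.09 (SE) on the log2 scale (edgeR quasi-likelihood, adjusted p = 1.94e-65), lower in hypothalamus in 75 of 75 mice. Gabre ranged from 0.0303 to 1.31 CPM in cortex (median 0.175) and from 14.8 to 43.1 in hypothalamus (median 31.3), again with no overlap, and the difference was 6.86 ± 0.11 (adjusted p = 5.07e-75, edgeR quasi-likelihood). The gamma1 subunit Gabrg1, found in glia and in subcortical neurons, was 4.35-fold higher in hypothalamus, with 22.5 to 35.2 CPM in cortex and 80.4 to 190.2 in hypothalamus. The alpha4 subunit Gabra4, the usual partner of delta in forebrain, was 3.76-fold higher in cortex, with 118.2 to 185.8 CPM there and 32.7 to 74.7 in hypothalamus. Neither gene overlapped between the regions.

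Among the glutamate receptors called between cortex and hypothalamus, the NMDA subunits Grin2a and Grin2b and the AMPA subunit Gria3 had the largest folds. Grin2a had 181.2 to 275.9 CPM in cortex (median 224.9) and 19.2 to 52.5 in hypothalamus (median 29.8), with no overlap and a fitted difference of -3.10 ± 0.03 on the log2 scale (adjusted p = 1.15e-83, edgeR quasi-likelihood). Grin2b had 178.3 to 779.0 CPM in cortex (median 612.2) and 66.1 to 208.4 in hypothalamus (median 132.2). Its ranges overlapped only through cortex ZT6 replicate 10, since the other 75 cortex libraries had 415.3 CPM or more. The fitted difference was -2.28 ± 0.04 (adjusted p = 5.82e-59, edgeR quasi-likelihood). The AMPA subunit Gria3 was 4.01-fold higher in cortex, with 293.8 to 457.9 CPM there and 58.4 to 154.5 in hypothalamus. In the other direction, Grin2d, an NMDA subunit of interneurons and of diencephalon, was 2.71-fold higher in hypothalamus and Grin3a, which lowers calcium entry, 2.06-fold. The rest of those higher in cortex were Gabrb2, Grin2c, Grm3, Gria2, Grm5, Grin1, Grm2 and Gabbr2, with folds from 2.04 to 2.83.

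Between cortex and striatum the members higher in cortex were Grm2, Grin2a, Grin2b, Gabbr2, Gria3 and Grin1. The cortex libraries also held striatal markers. The summed level of 8 striatal projection neuron markers had a median of 1010 CPM in the cortex libraries (147.4 to 1790). In the striatum libraries that median was 1990 CPM (137.4 to 8520). The part of this overlap in the folds was not tested. Grm2, a presynaptic receptor that lowers glutamate release, had 22.7 to 63.8 CPM in cortex (median 38.5) and 0.983 to 31.4 in striatum (median 6.40). The ranges overlapped, the fitted difference, striatum minus cortex, was -2.55 ± 0.17 (adjusted p = 4.29e-19, edgeR quasi-likelihood), and Grm2 was lower in striatum in 54 of 55 mice. Grin2a was 4.42-fold, Grin2b 2.93-fold and Gabbr2 2.67-fold higher in cortex. Gabre (15.9-fold) and Gabrg1 (2.96-fold) were higher in striatum. The summed level of 8 hypothalamic neuron markers had a median of 101.4 CPM in the striatum libraries (highest 414.8) and 3.17 in cortex. Gabre had a median of 2.24 CPM in the 29 striatum libraries with Drd1 at 100 CPM or more and 6.10 in the other 29. The part of hypothalamic tissue in these folds was not tested. Between striatum and hypothalamus, Gabrd (45.6-fold), Gabra4 (3.32-fold) and Grm3 (2.59-fold), a receptor of astrocytes and neurons, were higher in striatum, and Gabre (7.402-fold) and Grm2 (2.76-fold) in hypothalamus.

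The striatum values moved with the level of Drd1 in the library. Over the 58 libraries the log2 level of Grm5 had a Pearson's r of 0.82 with that of Drd1 and a Spearman's rho of 0.84, and Gabrd had 0.69 and 0.82. In the other direction, Grm2 had -0.80 and -0.89 and Gabra3, the alpha3 subunit, -0.72 and -0.85. These are descriptions, and the points share the dissection and the depth of their library. In the 29 libraries with Drd1 at 100 CPM or more, Grm2 had 0.983 to 6.91 CPM (median 3.80), against 5.97 to 31.4 (median 12.8) in the other 29. Grm5 had 143.1 to 403.1 CPM (median 309.5) in the former and 76.3 to 283.9 (median 143.5) in the latter. Grm2 was thus lower and Grm5 higher where Drd1 was high, with overlap between the libraries in both genes. With only those libraries, 14 of 39 members were called between striatum and hypothalamus in place of 5, where the share of all genes called was 13.3% in place of 8.72%. Between cortex and striatum 8 were called in both cases (14.7% of all genes with those libraries, 15.7% with all 58). The part of tissue makeup in the differences was not tested further.

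**Figure D2:**
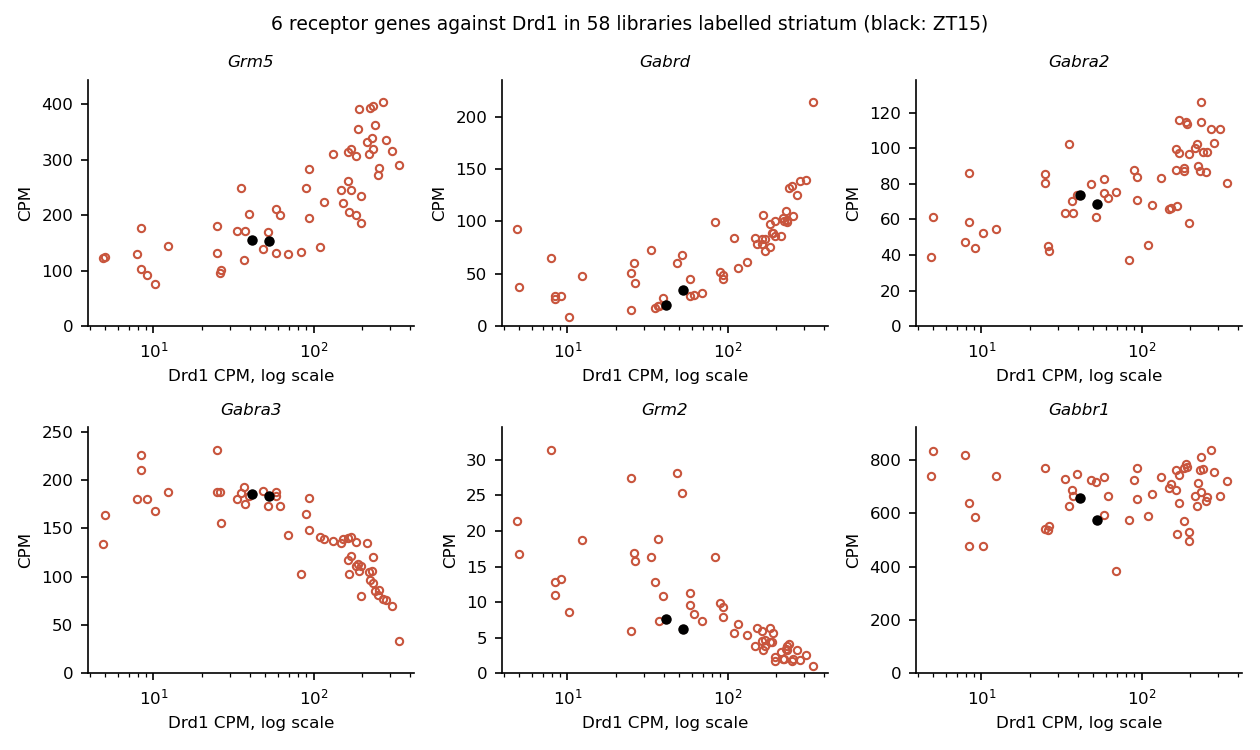
Level of 6 receptor genes (vertical, CPM from 0) against that of Drd1 (horizontal, CPM on a log scale), each point 1 of the 58 libraries labelled striatum and black points the 2 libraries of ZT15. Grm5, Gabrd and Gabra2 are higher and Gabra3 and Grm2 lower where Drd1 is high, and the ZT15 libraries sit at 41.0 and 52.9 CPM of Drd1.

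Daily change was tested with a 24 h cosine curve in edgeR's quasi-likelihood model, and a gene was called rhythmic where its adjusted p over all genes was under 0.05. The size is the fitted peak-to-trough ratio, and the peak is the fitted time. In cortex 19 of 39 members were called (48.7%), where 47.9% of 19509 genes were, so that the share of receptor genes was near that of all genes. Their changes were small: the median fitted ratio over the 39 was 1.09, against 1.14 over all genes, and 5 of the 39 were called with a ratio of at least 1.2 (12.8%, background 25.2%). In hypothalamus 7 members were called (17.9%, background 24.3%), 3 of them at 1.2-fold or more (background 14.4%), with a median ratio of 1.08 against 1.115 over all genes. Markers of other tissue also moved with ZT in the hypothalamus libraries. Of 8 striatal projection neuron markers 4 were called, all with a peak between ZT12 and ZT24. Their summed level was 279.1 to 395.2 CPM in 76 libraries and 917.0 CPM in ZT15 replicate 5, and without that library 1 of 8 was called. Of 4 pituitary markers 3 were tested and Gh and Prl called, while Pou1f1 had a median of 0. The summed pituitary level reached 37638 CPM in ZT0 replicate 9 and 28194 CPM in ZT9 replicate 9 (median of all libraries 16.2). Without those libraries 6 members were called (24.9% of all genes). The part of these tissues in the member rhythms was not tested further. In striatum Gabra2 alone was called (2.56%, background 5.73%), at 1.2-fold or more (background 5.16%).

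**Figure D3:**
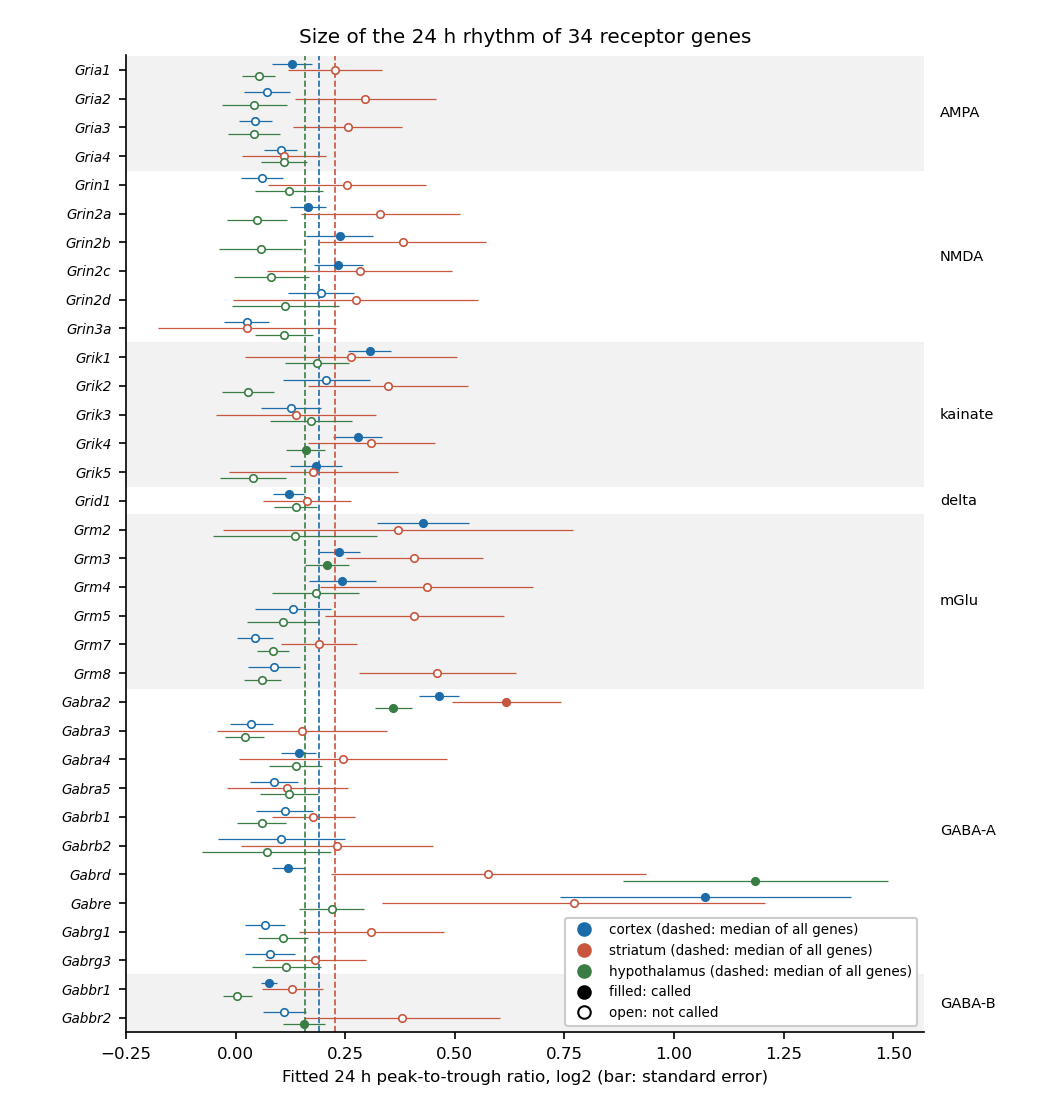
Fitted 24 h peak-to-trough ratio (log2, horizontal) of 34 of the 39 genes (vertical, by family) in cortex, striatum and hypothalamus. Bars are 1 SE, filled points are called at an adjusted p under 0.05 and dashed lines are the medians of all genes: Gabra2 is called in all 3 regions, and the ratio of Gabrd in hypothalamus and of Gabre in cortex stands out with wide bars.

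The share of small changes recovered in simulated data differed between regions. In data simulated from these libraries, 40.3% of genes given a 1.2-fold rhythm were recovered in cortex, 2.99% in striatum and 25.4% in hypothalamus. At 1.5-fold the shares were 86.6%, 44.8% and 79.1%. Few genes were changed in the simulation, and each gene was drawn separately with a spread set by its level. Spread shared between genes was left out. These shares are therefore not the power of the tests on the real libraries. ZT15 to ZT21 were sampled in the first cycle only, so for those hours the time of day and the cycle cannot be told apart. In cortex Drd1 had its lowest median at ZT15, 30.997 CPM (9.81 to 66.2), against 45.8 to 73.5 CPM in the other ZT groups, and with the level of 8 striatal markers as a covariate 19 members were called in cortex (51.5% of all genes), 18 of them among the 19 called without it.

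Gabra2, the alpha2 subunit of synaptic GABA-A receptors at which benzodiazepines relieve anxiety, was the only member called in all 3 regions. In cortex it was lowest at ZT12 (lowest 51.7, median 57.5, highest 63.7 CPM, 12 libraries) and highest at ZT21 (77.6, 81.1 and 84.7 CPM, 6 libraries), and these groups did not overlap. The fitted log2 ratio was 0.46 ± 0.05 (SE), a 1.38-fold change, with a peak at 22.4 h (edgeR quasi-likelihood, adjusted p = 1.20e-12). In hypothalamus the lowest group was again ZT12 (63.0, 77.3 and 85.5 CPM) and the highest ZT0 (77.8, 101.1 and 118.7 CPM), and 11 of the 12 libraries at ZT0 were above all libraries at ZT12. The fitted ratio there was 0.36 ± 0.04 with a peak at 21.9 h (adjusted p = 5.72e-10, edgeR quasi-likelihood). In striatum Gabra2 had 37.3 to 100.4 CPM at ZT12 (median 61.4, 11 libraries) and 87.8, 102.6, 113.8, 114.9 and 114.9 CPM in the 5 libraries of ZT21, and the groups overlapped. The fitted ratio was 0.62 ± 0.13, with a peak at 22.8 h (adjusted p = 0.00241, edgeR quasi-likelihood). The 3 fitted peaks lay between 21.9 and 22.8 h.

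Where both cycles were sampled, Gabra2 in cortex went from a median of 69.9 CPM at ZT0 to 54.8 at ZT12 in the first cycle and from 73.1 to 58.1 in the second. The first cycle alone gave a log2 ratio of 0.49 with a peak at 21.6 h in cortex (edgeR quasi-likelihood, adjusted p = 7.37e-11). In striatum Gabra2 also moved with Drd1 (Pearson's r = 0.65, Spearman's rho = 0.70 over 58 libraries), whose median was 190.0 CPM at ZT21 and 83.3 at ZT12. With only the 29 libraries of Drd1 at 100 CPM or more the fitted ratio was 0.45, the peak 22.05 h and the adjusted p 0.197 (edgeR quasi-likelihood), which is not a call. With the mean level of 8 striatal markers as a covariate the ratio was 0.53 and the adjusted p 0.000135. In cortex and hypothalamus Gabra2 remained called without the libraries that stood apart, with log2 ratios of 0.47 without cortex ZT6 replicate 10 and 0.37 without hypothalamus ZT15 replicate 5, ZT18 replicate 4 and ZT21 replicate 4.

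**Figure D4:**
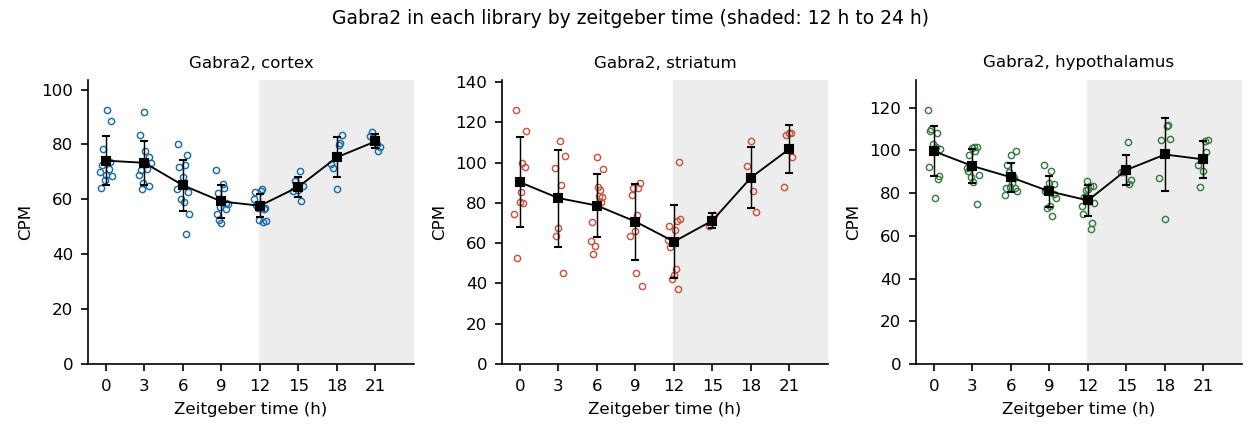
Gabra2 in each library (open circles, vertical, CPM from 0) by ZT (horizontal, h) in cortex, striatum and hypothalamus. Black squares and bars are the mean and SD of each ZT group, both cycles together, and the shading starts at ZT12: the group mean is lowest at ZT12 in each region and highest at ZT21 in cortex and striatum and at ZT0 in hypothalamus.

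Gabra2 lies on chromosome 5 in a cluster of GABA-A genes. With a gap of at most 1 Mb between neighbours, 12 of the 13 GABA-A members fell into 4 clusters, and Gabrd stood alone. On chromosome 5 (GRCm38) the order is Gabrg1 (70751047 to 70842617, minus strand), Gabra2 (70957597 to 71095849, minus), Gabra4 (71569749 to 71658308, minus) and Gabrb1 (71658113 to 72149037, plus). In cortex Gabra4 was called with a peak at 12.3 h and a ratio of 1.105, where that of Gabra2 was at 22.4 h, and Gabrg1 and Gabrb1 were not called. In hypothalamus Gabra2 was the only called member of this cluster.

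The stretch before a RefSeq start of transcription is shown for Gabra2, Grm3 and Grik4. They have a promoter in the RefSeq table and were called in both cortex and hypothalamus, with a peak within 3 h between them. The sequences are RefSeq's, of GRCm38.p6, 250 bases up to a RefSeq start, all on the minus strand of the genome and printed 5′ to 3′ along the gene. In the GENCODE annotation Grik4 spans 42518135 to 42944493, so part of its printed stretch lies inside the gene as placed there. Capitals mark a match to the searched motifs.

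Gabra2, chr5:71095850-71096099: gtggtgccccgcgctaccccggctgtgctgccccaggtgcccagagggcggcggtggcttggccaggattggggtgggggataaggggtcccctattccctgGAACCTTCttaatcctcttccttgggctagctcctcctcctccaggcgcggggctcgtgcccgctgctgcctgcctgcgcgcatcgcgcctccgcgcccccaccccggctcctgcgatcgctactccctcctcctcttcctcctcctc
Grm3, chr5:9725353-9725602: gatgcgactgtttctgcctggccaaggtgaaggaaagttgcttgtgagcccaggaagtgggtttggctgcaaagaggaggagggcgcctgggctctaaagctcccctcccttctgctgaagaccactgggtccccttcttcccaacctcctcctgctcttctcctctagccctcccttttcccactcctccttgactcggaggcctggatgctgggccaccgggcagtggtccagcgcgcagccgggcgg
Grik4, chr9:42944372-42944621: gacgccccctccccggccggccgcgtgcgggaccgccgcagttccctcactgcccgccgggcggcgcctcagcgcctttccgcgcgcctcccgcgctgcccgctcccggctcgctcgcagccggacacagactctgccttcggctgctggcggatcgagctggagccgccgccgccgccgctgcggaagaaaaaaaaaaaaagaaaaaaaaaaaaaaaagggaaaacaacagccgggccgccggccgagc

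Motifs were searched on both strands as plain letters: the E-box CACGTG, the D-box TTATGTAA, the cyclic AMP response element TGACGTCA, the ROR element core AGGTCA, the heat shock element core GAANNTTC and the glucocorticoid response element. The Gabra2 stretch holds GAACCTTC, a match to the heat shock element core, starting 148 bases before the start. Among the 32851 tabulated promoters, 6.69% hold that core, and of the 31 promoters of the 24 members listed there those of Gabra2 and Gabra4 do (6.45%). The printed stretches of Grm3 and Grik4 hold none of the 6 motifs, which says only that these letters are not in this window. The share of all promoters with each of the other motifs was 6.02% for the E-box, 0.819% for the D-box, 1.55% for the cyclic AMP response element, 14.02% for the ROR element core and 0.387% for the glucocorticoid response element. Among the members Grin1 held the E-box and Grin2c the ROR element core. The GC content of the printed stretches was 70.0% (Gabra2), 62.4% (Grm3) and 69.6% (Grik4), against a median of 52.4% over all promoters.

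Of the metabotropic glutamate receptors, those called in cortex included Grm2, Grm3 and Grm4. Grm3 had 57.0 to 72.8 CPM at ZT0 (median 61.1, 11 libraries) and 44.6 to 53.7 at ZT15 (median 50.0, 6 libraries), with no overlap. Its fitted log2 ratio was 0.24 ± 0.05, with a peak at 4.3 h (adjusted p = 0.000107, edgeR quasi-likelihood). In hypothalamus, at a median level of 23.6 CPM where cortex had 60.2, Grm3 was also called, with 21.7 to 30.1 CPM at ZT3 (median 26.0) and 15.95 to 23.05 at ZT18 (median 21.9). These groups overlapped, and the ratio was 0.21 ± 0.05 with a peak at 2.0 h (adjusted p = 0.00287). Grm2 had 29.2 to 63.8 CPM at ZT9 in cortex (median 54.1) and 23.9 to 47.3 at ZT21 (median 35.3), which overlapped, and a ratio of 0.43 ± 0.10 with a peak at 7.4 h (adjusted p = 0.00162, edgeR quasi-likelihood). Grm4, a presynaptic receptor, had a ratio of 0.24 ± 0.08 and a peak at 0.8 h (adjusted p = 0.0216, edgeR quasi-likelihood). These receptors thus had peaks at different hours, spread from 0.8 h to 7.4 h.

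Of the kainate subunits, Grik1, Grik4 and Grik5 were called in cortex. Grik1 had 13.2 to 18.95 CPM at ZT6 (median 16.1) and 11.1 to 12.8 at ZT15 (median 12.0), with no overlap, and a log2 ratio of 0.31 ± 0.05 with a peak at 7.3 h (adjusted p = 1.57e-06, edgeR quasi-likelihood). Grik4, a high-affinity subunit, had 23.3 to 35.9 CPM at ZT9 (median 29.9) and 20.7 to 25.7 at ZT18 (median 22.8). These groups overlapped, and its ratio was 0.28 ± 0.06 with a peak at 7.5 h (adjusted p = 0.000115). In hypothalamus Grik4 had 33.3 to 45.2 CPM at ZT3 (median 37.5) and 24.1 to 38.3 at ZT21 (median 34.7), and a ratio of 0.16 ± 0.04 with a peak at 8.3 h (adjusted p = 0.0141, edgeR quasi-likelihood). That call was lost without ZT18 replicate 4 and ZT21 replicate 4, which had 23.0 and 24.1 CPM (ratio 0.12, adjusted p = 0.0829).

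The delta subunit Grid1 was called in cortex, with 61.9 to 66.8 CPM at ZT21 (median 65.0) and 49.7 to 59.8 at ZT15 (median 53.1). These groups did not overlap, and it changed by 1.09-fold with a peak at 0.9 h (adjusted p = 0.0112, edgeR quasi-likelihood).

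**Figure D5:**
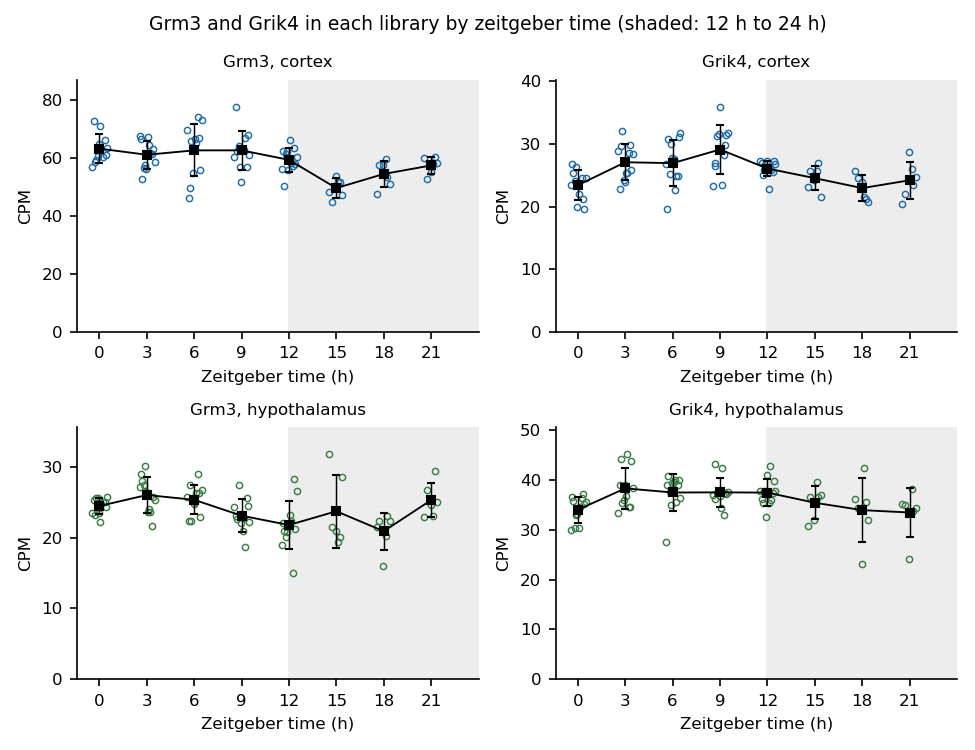
Grm3 and Grik4 in each library (open circles, vertical, CPM from 0) by ZT (horizontal, h) in cortex and hypothalamus, with black squares and bars for the mean and SD of each ZT group and shading from ZT12. In cortex the group mean of Grm3 is lowest at ZT15 and that of Grik4 at ZT18, and the changes are small beside the levels.

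Of the NMDA subunits, Grin2a, Grin2b and Grin2c were called in cortex, all with peaks between 21.0 and 23.3 h. Grin2b had 643.9 to 747.1 CPM at ZT21 (median 689.6) and 415.3 to 653.5 at ZT15 (median 449.1), and the groups overlapped in 1 library of ZT15. Its log2 ratio was 0.24 ± 0.08 (adjusted p = 0.0245, edgeR quasi-likelihood). Grin2a and Grin2c had ratios of 1.121 and 1.176, and Grin1, Grin2d and Grin3a were not called. No NMDA subunit was called in hypothalamus or striatum. Of the AMPA subunits only Gria1 was called, in cortex, with a ratio of 1.09, a peak at 23.3 h and an adjusted p of 0.0454 (edgeR quasi-likelihood), and Gria2 had a ratio of 1.05 (adjusted p = 0.481).

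Beyond Gabra2 and Gabra4, the GABA-A subunits called in cortex included Gabrd (1.09-fold, 3.5 h) and Gabre. The fitted log2 ratio of Gabre was 1.07 ± 0.33, peaking at 7.0 h (adjusted p = 0.0149, edgeR quasi-likelihood), at a level of 0.0303 to 1.31 CPM. Its call was lost with the cycle as a covariate (ratio 0.55, adjusted p = 0.263). Gabra3, Gabra5, Gabrb1, Gabrb2, Gabrg1 and Gabrg3 were not called in cortex, with ratios from 1.03 to 1.08. Gabrb2 had 4.51 CPM in cortex ZT6 replicate 10 and 101.3 to 214.3 in the other 75 cortex libraries. Of the GABA-B subunits, Gabbr1 was called in cortex at 1.05-fold with a peak at 1.0 h, the smallest ratio among the called members.

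In hypothalamus the called members also included Gabrd and Gabbr2. Gabrd had the largest fitted ratio, 1.18 ± 0.30 on the log2 scale (adjusted p = 0.00279, edgeR quasi-likelihood), where ZT15 replicate 5 had 23.3 CPM and the other 5 libraries of ZT15 had 0.862 to 1.32. Without that library the ratio was 0.38 and the adjusted p 0.412. Gabbr2 (ratio 0.16 ± 0.05, peak 3.9 h, adjusted p = 0.0333) was lowest in ZT18 replicate 4. Its call was lost in 8 of 12 alternative settings (adjusted p 0.0721 to 0.674, edgeR quasi-likelihood), with 0.0721 without ZT18 and ZT21 replicate 4 and 0.0736 without ZT15 replicate 5. Without ZT15 replicate 5, ZT18 replicate 4 and ZT21 replicate 4, 3 members were called (23.2% of all genes), among them Gabra2 and Grm3 (log2 ratio 0.24, adjusted p = 0.000246, edgeR quasi-likelihood). Of the 7 members called in hypothalamus, 5 were among the 19 of cortex (71.4% of 7, 26.3% of 19), among them Gabra2, Gabrd, Grik4 and Grm3. Without ZT15 replicate 5, which ends the call of Gabrd, 4 members were called in hypothalamus, and all 4 were among the 19 of cortex. Of all genes tested in cortex, 47.9% were called there. The overlap was not counted over all genes, so it is not shown to be particular to the receptor genes. The peaks of Gabra2, Grik4 and Grm3 differed by 0.456 to 2.34 h between the regions, and those of Gabrd by 11.5 h.

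A rhythm called in cortex and not elsewhere is not shown to differ. The difference in rhythm between regions was tested within mice, as an interaction of region with the 24 h curve. No member was called in any pair by edgeR's quasi-likelihood test, where 0.252% of genes were called between cortex and striatum, 9.11% between cortex and hypothalamus and 0.0158% between striatum and hypothalamus. Without adjustment, p was under 0.05 for 2 of 39 members between cortex and striatum (6.32% of all genes), among them Gabre. The same held for 3 between cortex and hypothalamus (22.6% of all genes), among them Gabre and Grid1, and for 2 between striatum and hypothalamus (2.85% of all genes), Gabre and Grm8. Grid1 had the lowest adjusted p, 0.0514, between cortex and hypothalamus. In simulated data with the limits given above, a difference of 1.2-fold was recovered for 22.4% of genes between cortex and hypothalamus. The shares were 1.49% and 0% in the pairs with striatum.

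The first and second cycle were compared at ZT0 to ZT12, with ZT as a factor. In cortex 15 of 39 members were called (background 16.3%), 11 of them higher in the second cycle (background 9.7%) and 4 lower (background 6.56%). Grm5 had 148.0 to 301.8 CPM in the first cycle (median 212.0, 29 libraries) and 128.4 to 323.9 in the second (median 283.0, 29 libraries). The ranges overlapped, and the log2 difference, second minus first, was 0.30 ± 0.06 (adjusted p = 0.000222, edgeR quasi-likelihood). Grin3a rose from a median of 36.4 to 41.7 CPM (0.16 ± 0.03, adjusted p = 0.000227) and Grik4 fell from 28.2 to 25.3 (-0.18 ± 0.04, adjusted p = 0.00025), by the same edgeR test and with overlapping ranges. The other members called higher included Gabra2, Gabra4, Gabrb1, Gabre, Gabrg1, Grik1 and Grik2, and the others lower were Gabbr2, Grin1 and Grm2.

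A marker of striatum moved the same way: Drd1 in the cortex libraries had a median of 38.3 CPM in the first cycle (8.49 to 102.1) and 75.6 in the second (19.3 to 106.6). With the mean level of the 8 striatal markers as a covariate, no member was called (edgeR quasi-likelihood, 11 at an unadjusted p under 0.05). Of all genes 0.317% were then called in place of 16.3%, and 9.14% had an unadjusted p under 0.05. With that covariate Grm5 had a difference of 0.14 and an adjusted p of 0.342. Without ZT6 replicate 10, a library of the second cycle, 24 members were called, 20 of them higher, and 29.4% of all genes were called. Over the 76 cortex libraries the log2 level of Grik2 had a Pearson's r of 0.87 with that of Drd1 and a Spearman's rho of 0.89, and Gabbr2 -0.71 and -0.74. In striatum and hypothalamus no member differed between cycles by edgeR's quasi-likelihood test (0% and 0% of all genes), with 19 and 0 members at an unadjusted p under 0.05 (21.3% and 5.99% of all genes). With DESeq2's size factors the counts of called members were 0 in both. Drd1 in the striatum libraries had a median of 171.4 CPM in the first cycle (4.96 to 341.4) and 54.7 in the second (4.83 to 283.8). With only the striatum libraries of Drd1 at 100 CPM or more, which are fewer, 0 members had an unadjusted p under 0.05 (1.62% of all genes). The part of tissue makeup in the striatum cycles was not tested further.

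The proteins that work with these receptors were followed as 4 lists, against the same background of 47.9% of genes called in cortex. The scaffolds of excitatory synapses, which anchor AMPA, NMDA and metabotropic receptors, had 13 of 18 genes called in cortex, 12 of them with a peak between ZT12 and ZT24, a window that held 46.9% of all genes called in cortex. Their median log2 ratio was 0.18, against 0.19 over all genes. The largest was Homer1, which binds Grm5 and has an activity-induced short form, at 2.44-fold with a peak at 21.6 h (adjusted p = 2.94e-18, edgeR quasi-likelihood), followed by Shank2 (1.38-fold, 20.8 h) and Dlgap3 (1.30-fold, 23.8 h). The auxiliary subunits of AMPA and kainate receptors had 7 of 13 called, among them the kainate partners Neto2 (1.25-fold, 22.05 h) and Neto1 (1.203-fold, 19.6 h) and the AMPA partner Shisa9 (1.18-fold, 21.4 h), with a median of 0.24. The partners of GABA receptors had 3 of 10 called, Shisa7 (1.24-fold, 21.5 h), Kctd12 and Kctd8, with a median of 0.07, and the genes of transmitter synthesis and transport 2 of 14, Slc1a1 and Glul, with a median of 0.08.

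In hypothalamus the called partners were Cacng5, Homer1, Shank3, Kctd12, Glul, Slc17a7 and Slc6a11, and in striatum Homer3. Homer1 in hypothalamus changed by 1.23-fold (peak at 19.1 h). Slc17a7 was among the genes high in hypothalamus ZT15 replicate 5. By level, 13 of 18 scaffolds were at least 2-fold higher in cortex than in hypothalamus and 0 of 18 higher in hypothalamus (backgrounds 10.2% and 10.5%), while 1 of 10 GABA receptor partners was higher in cortex.

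In 77 liver libraries 8 of the 39 had a mean of 1 CPM or more, among them Gabbr2 (lowest 8.89, median 23.3, highest 46.0 CPM), Grik5 (3.85, 10.8 and 18.3), Gabbr1 (0.941, 4.19 and 7.47), Grm8 (1.27, 3.40 and 6.67), Gabra3, Gria3 and Grid1. Gabra2 was at 0 in 73 of the 77 liver libraries.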

How the data were processed

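Total RNA was isolated with the Qiagen miRNeasy kit and messenger RNA libraries were sequenced by Illumina protocols, per the labels' protocols. Reads were aligned with STAR 2.7.3a and counted with HTSeq 0.10.0 on GRCm38 (mm10), per the submitters' processing notes. Strand setting, annotation release and light schedule: not given in the sources used here. Raw counts per gene and FPKM values per gene were deposited by the authors, 1 table of each per tissue. Of 48795 gene identifiers, 48349 were matched to symbols.

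The members and gene lists were chosen with earlier results of these data known. CPM were counts divided by the library total. Counts were tested with edgeR 4.0.16 in R 4.3.3 (filterByExpr, TMM scaling, quasi-likelihood test, Benjamini-Hochberg adjustment over all genes tested, threshold 0.05), with DESeq2 1.42.0 as an alternative. Rhythm was a cosine and a sine of 24 h tested together. Regions were compared within mice, at 2-fold or more. FPKM were used for levels between genes and not tested. The tests were run on simulated data. TMM factors were 0.950 to 1.04 in cortex, 0.789 to 1.10 in striatum and 0.815 to 1.05 in hypothalamus. Libraries standing apart were found from genes with a mean of at least 5 CPM and a pseudocount of 0.5 CPM.

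Genes described in full were the called members with the largest fitted ratio in each region, those with the largest fold in each pair of regions, the highest member of each family by FPKM, and the members and partners with the smallest adjusted p between cycles, in rhythm differences and in each list. Some members are counted in all totals but are not reported here one by one. Promoters came from RefSeq (GRCm38.p6), which held 24 of the 39 genes. Without a known strand setting, reads of overlapping genes on the other strand, such as Grin1 and Grin1os, cannot be told apart. Alternatives were other scaling, no filter on low counts, ZT as a factor, the first cycle alone, blocks for replicate number or run code, covariates for cycle and striatal markers, and leaving out libraries. Those on striatal markers, Drd1 and the libraries that stood apart were chosen after seeing the data.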

Additional observations from a re-analysis of the deposited data

Results flagged for a closer look

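In 4 of 47 ZT groups of the rhythms described, 1 library lay far from the others of its group of 6, and chance flags about 1 in 20 such groups. Gabrd in hypothalamus ZT15 replicate 5 had 23.3 CPM, where the others had 0.862 to 1.32. Grik4 in hypothalamus ZT21 replicate 4 had 24.1 CPM, where the others had 33.8 to 38.3. Gabra2 in hypothalamus ZT15 replicate 1 had 103.8 CPM, where the others had 84.2 to 91.3. Gabre in cortex ZT15 replicate 1 had 0.404 CPM, where the others had 0.0829 to 0.156.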

How the results depend on the processing

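Counts of members called in cortex rhythm ranged from 13 to 22 over 11 alternatives (19 as reported, 47.9% of all genes). The share of all genes was 43.7% at 13, with all libraries, and 51.2% at 22, with the cycle as a covariate. In level between cortex and hypothalamus, counts ranged from 15 to 18 (17), with 20.3% to 22.5% of all genes. Between cortex and striatum they ranged from 7 to 9 (8), with 14.5% to 18.4%. Without cortex ZT6 replicate 10, 20 members were called in cortex rhythm (52.2% of all genes). Without that library 9 were called in level between cortex and striatum (16.1%). The 7 members rhythmic in hypothalamus (24.3% of all genes) became 2 with the first cycle alone (10.6%) and 4 with the run code as a block (21.2%). There were 4 without ZT15 replicate 5 (23.4%), 4 without ZT18 and ZT21 replicate 4 (23.9%) and 3 without all 3 libraries (23.2%). With a replicate block there were 12 (35.0%). In striatum the rhythm count of 1 (5.73% of all genes) became 0 with Drd1 at 100 CPM or more (2.38%) and 2 with the striatal marker covariate (7.13%). It stayed at 1 with 1 library left out in each of 11 settings (4.99% to 6.25%). The cortex cycle count of 15 (16.3% of all genes) became 0 with the marker covariate (0.317%), 6 with all libraries (6.82%) and 24 without ZT6 replicate 10 (29.4%). The striatum cycle count of 0 (0% of all genes) became 1 with all libraries (2.92%). Between striatum and hypothalamus 14 members were called in level with Drd1 at 100 CPM or more (13.3% of all genes), and 5 as reported (8.72%). Between cortex and hypothalamus 1 member differed in rhythm with no mouse block (7.99% of all genes), and 0 as reported (9.11%). The cause of these shifts was not tested. Of single genes, 288 values kept their side of the threshold, 28 lost it and 0 reversed, among them Gabbr2 in hypothalamus (adjusted p 0.0721 to 0.674 in 8 settings, edgeR or DESeq2), and Grm2 (0.117), Grin2b (0.0683) and Gabre (0.142) in cortex with all libraries. Replicate numbers were not used as pairs in the reported fits. Libraries of the same number correlated with a median r of 0.0794 in cortex, 0.221 in striatum and 0.214 in hypothalamus, and a lowest of -0.923. Those of different numbers had medians of 0.00248, -0.00692 and -0.0271, so libraries of the same number were by median more alike. The replicate block gave 18 rhythmic members in cortex (45.9% of all genes) and 1 in striatum (6.58%), and 10 members between cycles in cortex (8.43%). Depth limits Gabre in cortex, with 1 to 53 counts a library.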
